A study of Homo sapiens with 9 samples.

Results

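The genes described here are the mitotic cyclins, the kinase they activate and the phosphatases that switch it on. They comprise the cyclin genes CCNA2, CCNB1, CCNB2 and CCNF, the kinase gene CDK1, its small subunit genes CKS1B and CKS2, and the CDC25 phosphatase genes CDC25A, CDC25B and CDC25C. They were chosen by gene symbol, with earlier results of these data known. All 10 were found among the 60966 genes of the deposited tables, where they have 68 of the 244443 listed transcripts. RNA-seq had been performed on H1299, an established line of human non-small cell lung cancer, collected 48 h after transfection of a scrambled siRNA (Scramble) or of 1 of the siRNAs Si-FIBP#1 and Si-FIBP#2, which target FIBP, an intracellular protein that binds acidic fibroblast growth factor. There were 3 samples in each group, which the design calls independent. All 9 came from the same line and the depletion was transient, and the Scramble cells were transfected as well, so that no untransfected sample was compared. Messenger RNA was selected by its poly(A) tail, and fragments were read from both ends.

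Entry into mitosis is driven by CDK1, a kinase that is inactive without a cyclin. Cyclin A2 pairs with CDK2 in S phase and also with CDK1 later, whereas cyclins B1 and B2 pair with CDK1 for mitosis and are destroyed when chromosomes separate. WEE1 and PKMYT1 hold the complex inactive by phosphorylation, and the CDC25 phosphatases remove these marks. The RNAs of most of these genes are made periodically, late in the cell cycle. Their level in a bulk sample therefore depends both on the number of cells in S, G2 and M phase and on the amount of RNA in each such cell, and these cannot be told apart here.

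The targeted gene was checked first. FIBP stood at 77.74 to 88.38 FPKM in the Scramble samples, at 4.3 to 7.77 FPKM in the Si-FIBP#1 samples and at 5.92 to 8.21 FPKM in the Si-FIBP#2 samples. FPKM counts fragments per kilobase of transcript relative to the library's mapped fragments, so levels of different genes are given per length. Between samples it rests on the library total, and other scalings are given in the closing section. The mean with Si-FIBP#1 was 7.96% of the Scramble mean and that with Si-FIBP#2 was 8.66%, and the remaining FIBP did not differ detectably between the siRNAs (log2 difference 0.13, Benjamini-Hochberg adjusted p = 0.686, limma). The FPKM of a library summed to 781058 to 818104, and 13894 to 14715 genes per library reached 1 FPKM. No read counts were used here, so the depth behind each value is unknown and precision rests on the spread between samples.

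Of the markers set for the culture, VIM stood at 1592 to 3369 FPKM, KRT8 at 67.15 to 108.14 FPKM and KRT7 at 4.5 to 9.32 FPKM, whereas EPCAM and KRT19 stayed at or below 0.28 and 0.29 FPKM in every library. PTPRC, PECAM1, COL1A1 and ALB, which mark leukocytes, endothelium, fibroblasts and hepatocytes, reached at most 0.27, 0.2, 1.59 and 1 FPKM. CD68, a lysosomal protein used as a macrophage marker, was at 31 to 66.96 FPKM. Several of these genes moved with the groups (limma, Benjamini-Hochberg adjusted p at most 0.0387). KRT18 fell from 467 to 483 FPKM in Scramble to 143 to 226 FPKM in the depleted samples. VIM fell by 0.49 and 0.72 and KRT8 by 0.53 and 0.49 on the log2 scale for Si-FIBP#1 and Si-FIBP#2, and CD68 rose by 0.27 and 0.90. The part of these markers in the results below was not tested.

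The start regions of the genes are shown because the members share sequence there. The choice by symbol did not use it. The motifs searched were, however, ones already known from late cell cycle genes, so their counts in the members serve as description. Late cell cycle promoters are known for CCAAT boxes, bound by NF-Y, and for the CHR element TTTGAA, which the DREAM and MYBL2 complexes contact. RefSeq (GRCh38.p14) gave windows of 250 bases before to 50 bases after a start for all 10 genes, 17 windows in all. For each gene the window nearest to the start of its most abundant Ensembl transcript was used, both strands were searched, and position -1 is the base before the RefSeq start. TTTGAA lay in the used window of 6 of 10 members. These 6 sites follow with the flanking bases that make up 30 in all, on the strand of the gene from 5′ to 3′, with the element in capitals (TTCAAA is the same element on the other strand).
CCNB2, chr15:59105105-59105134, plus strand: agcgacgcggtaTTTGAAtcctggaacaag
CCNF, chr16:2429350-2429379, plus strand: gggccgggtgcgTTTGAAaactggggtggg
CDK1, chr10:60778453-60778482, plus strand: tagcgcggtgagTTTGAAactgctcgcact
CKS1B, chr1:154974639-154974668, plus strand: gcgggcggcgtgTTTGAAagcgaggccaaa
CKS2, chr9:89311154-89311183, plus strand: cgggctgtcggaTTCAAAtccggatcgttg
CDC25C, chr5:138331817-138331846, minus strand: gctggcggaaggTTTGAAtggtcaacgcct

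In CKS1B, CDC25C, CKS2 and CCNB2 the first base of the element fell at -30, -30, -29 and -29 from the RefSeq start. The start of the most abundant Ensembl transcript lay 18, 31, 3 and 68 bases from that RefSeq start, in the same order. The 4 sites thus line up on the RefSeq starts but not on the Ensembl starts. How many of all windows hold TTTGAA at this distance was not counted. CDK1 had the printed site at -13 and further matches at -69 and 10, and the CCNF site at -85 stood farther upstream. Across all 35116 RefSeq windows of this length, 15.2% held TTTGAA.

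The CCAAT box was present in the used window of 10 of 10 members, against 34.6% of all windows, and 7 of 10 members had at least 2 copies, against 10.8%. The window is least certain for CDC25A and CDC25B, since the Ensembl transcript that placed it carried 4.56% to 7.75% and 11.31% to 15.28% of their FPKM, as means of the groups, and the start of the assembled transcripts is not known here. Among the windows that were not used, 2 of CDC25B and 2 of CDC25C held no CCAAT. Spacings of 32 or 33 bases between neighbouring boxes occurred in CCNB1 and CDK1, in 2 of 3 pairs of CCNB2 and in 1 of 4 pairs of CKS1B, where the others were 39, 58 and 48 bases. Those of CKS2 were 78 and 18 bases, those of CCNF 11, 29 and 104 bases and that of CDC25A 52 bases. How often such spacings occur in the windows of other genes was not counted. The upstream stretches of CKS1B, CKS2 and CCNB2 show boxes that lie outside annotated exons, with CCAAT or its reverse ATTGG in capitals.
CKS1B, chr1:154974541-154974652, plus strand: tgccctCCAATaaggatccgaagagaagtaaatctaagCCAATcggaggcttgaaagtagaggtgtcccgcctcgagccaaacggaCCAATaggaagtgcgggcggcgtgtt
CKS2, chr9:89311055-89311194, plus strand: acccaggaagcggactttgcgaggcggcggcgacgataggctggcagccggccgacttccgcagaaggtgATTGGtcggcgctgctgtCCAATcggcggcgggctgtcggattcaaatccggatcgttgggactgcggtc
CCNB2, chr15:59105006-59105077, plus strand: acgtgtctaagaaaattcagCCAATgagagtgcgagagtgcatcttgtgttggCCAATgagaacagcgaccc

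Both elements together were found in 6 of 10 members and in 5.9% of all windows. The variant TTCGAA lay in CCNF and CDC25B and in 1.45% of windows. No other form of the CHR element was searched, so a member without a match may hold another form. Of the E2F motifs, TTGGCGC lay in CDK1 and CDC25A, where 2 matches on opposite strands overlap, and in 3.04% of windows. TTCCCGC lay in none of the used windows and in 6.55% of all. In windows that were not used it lay in 2 of 10 members, CDC25B and CDC25C, where 7.82% of all genes held it in any window. A match describes letters in a window, and binding was not measured in these samples.

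The B-type cyclins are the partners of CDK1 in mitosis. CCNB1 (ENSG00000134057, chr5:69167010-69178245, GENCODE release 29 on GRCh38, plus strand) is the main one. It stood at 275.37, 282.04 and 285.71 FPKM in Scramble, at 79.89, 85.32 and 87.6 FPKM in the Si-FIBP#1 samples and at 118.56, 96.6 and 114.05 FPKM in the Si-FIBP#2 samples. The 3 groups did not overlap. The mean with Si-FIBP#1 was 29.985% of that in Scramble and the mean with Si-FIBP#2 39.0%. CCNB1 fell by 1.73 ± 0.073 on the log2(FPKM + 1) scale with Si-FIBP#1 (SE, n = 3 per group, limma with Benjamini-Hochberg adjusted p = 4.38e-07). In the Si-FIBP#2 group it fell by 1.35 ± 0.073 (SE, limma with Benjamini-Hochberg adjusted p = 1.43e-06).

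CCNB2 (ENSG00000157456, chr15:59105078-59125045, plus strand), the Golgi-associated B-type cyclin, was lower than CCNB1 in every sample. Its level was 103.56, 106.24 and 120.2 FPKM in Scramble, 46.82, 48.42 and 48.02 FPKM in the Si-FIBP#1 samples, and 65.08, 54.92 and 60.23 FPKM in the Si-FIBP#2 samples. It kept 43.4% of the Scramble mean after Si-FIBP#1 transfection and 54.6% after Si-FIBP#2. All 3 groups were apart, and the log2 changes were -1.18 (limma, Benjamini-Hochberg adjusted p = 2.54e-06) and -0.86 (adjusted p = 1.78e-05). With Si-FIBP#2 the change passed the test but not the 2-fold threshold.

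CCNA2 (ENSG00000145386, chr4:121816444-121823933, minus strand) encodes cyclin A2, which acts in S phase and at mitotic entry, and its value came from 1 listed transcript. It was measured at 65.89, 66.48 and 67.74 FPKM in Scramble, at 20.5, 20.69 and 24.7 FPKM in the Si-FIBP#1 samples and at 32.41, 27.81 and 33.38 FPKM in the Si-FIBP#2 samples. The Scramble mean was 66.7 ± 0.945 FPKM (SD, n = 3), and neither depleted group came near them. What remained was 32.9% for Si-FIBP#1 and 46.8% for Si-FIBP#2. The log2 changes were -1.56 (limma, Benjamini-Hochberg adjusted p = 1.25e-06) and -1.08 (adjusted p = 1.24e-05). Without Si-FIBP#2 replicate 2 the change with Si-FIBP#2 was -0.998, just under the 2-fold threshold.

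CCNF (ENSG00000162063, chr16:2429394-2458854, plus strand) encodes cyclin F, which activates no kinase and instead selects proteins for an SCF ubiquitin ligase. It was among the least abundant members, at 15.23, 14.92 and 14.56 FPKM in Scramble, 6.43, 5.89 and 6.27 FPKM in the Si-FIBP#1 samples and 10.4, 7.95 and 9.41 FPKM in the Si-FIBP#2 samples. The groups were again apart, with 41.6% of the Scramble mean left for Si-FIBP#1 and 62.1% for Si-FIBP#2. The changes on the log2 scale were -1.14 (limma, Benjamini-Hochberg adjusted p = 1.03e-05) and -0.64 (adjusted p = 0.000373).

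CDK1 (ENSG00000170312, chr10:60778331-60794852, plus strand) is the catalytic subunit. It stood at 112.76, 113.63 and 116.46 FPKM in Scramble, at 31.01, 32.21 and 36.95 FPKM in the Si-FIBP#1 samples and at 46.71, 40.62 and 45.97 FPKM in the Si-FIBP#2 samples. The lowest Scramble sample was thus above the highest depleted sample by a wide margin. Of all 10 members, CDK1 had the largest change with Si-FIBP#1, -1.75 ± 0.075 (SE, limma with Benjamini-Hochberg adjusted p = 4.38e-07), which left 29.2% of the Scramble mean and was within 1 SE of that of CCNB1. With Si-FIBP#2 the change was -1.35 ± 0.075 (SE, adjusted p = 1.74e-06), and 38.9% was left.

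CKS1B and CKS2 encode small proteins that bind CDK1 and CDK2 and help them recognise substrates that already carry phosphate, and CKS1B also serves the SCF ligase that degrades the inhibitor p27. CKS1B (ENSG00000173207, chr1:154974653-154979249, plus strand) stood at 254.93, 244.36 and 258.07 FPKM in Scramble, at 76.95, 85.83 and 84.95 FPKM in the Si-FIBP#1 samples and at 87.51, 84.9 and 83.27 FPKM in the Si-FIBP#2 samples. Both depleted groups overlapped each other and lay far below Scramble, at 32.7% and 33.8% of its mean. The log2 changes were -1.60 ± 0.053 and -1.56 ± 0.053 (SE, limma with Benjamini-Hochberg adjusted p = 2.33e-07 and 2.53e-07).

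CKS2 (ENSG00000123975, chr9:89311198-89316703, plus strand) was the most abundant member in all 3 groups. It stood at 323.4, 322.58 and 348.47 FPKM in Scramble, at 130.88, 141.28 and 139.06 FPKM in the Si-FIBP#1 samples and at 188.47, 185.6 and 188.26 FPKM in the Si-FIBP#2 samples. Here the siRNA groups were clearly separate, at 41.4% and 56.5% of the Scramble mean. The log2 changes were -1.27 and -0.82 (limma, Benjamini-Hochberg adjusted p = 3.06e-07 and 1.97e-06).

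The CDC25 phosphatases remove the inhibitory phosphates from CDK1 and CDK2. By their estimates CDC25C fell about as far as CCNB2 did, and CDC25A and CDC25B less than that, differences between genes that were not tested. CDC25C (ENSG00000158402, chr5:138285265-138338355, minus strand), which acts at mitotic entry, stood at 19.23, 16.57 and 17.74 FPKM in Scramble, 6.77, 7.18 and 7.2 FPKM in the Si-FIBP#1 samples and 9.39, 8.37 and 9.83 FPKM in the Si-FIBP#2 samples. The groups did not overlap, and 39.5% and 51.5% of the Scramble mean were left. The log2 changes were -1.23 and -0.89 (limma, Benjamini-Hochberg adjusted p = 3.5e-06 and 2.68e-05).

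CDC25B (ENSG00000101224, chr20:3786772-3806121, plus strand), known as a starter of CDK1 activation at centrosomes, was the most abundant of the phosphatases. It was at 55.17, 51.18 and 52.42 FPKM in Scramble, 30.44, 25.31 and 26.57 FPKM in the Si-FIBP#1 samples and 32.75, 26.65 and 31.54 FPKM in the Si-FIBP#2 samples. The siRNA groups overlapped each other but not Scramble, and 51.8% and 57.3% of the Scramble mean remained. The changes of -0.93 and -0.79 on the log2 scale passed the test (limma, Benjamini-Hochberg adjusted p = 3.45e-05 and 9.75e-05) without reaching 2-fold, and without Si-FIBP#1 replicate 1 the first was -1.001 and past 2-fold.

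CDC25A (ENSG00000164045, chr3:48157146-48188402, minus strand), which also acts on CDK2 at the start of S phase, had the smallest changes of the 10 members. Its levels were 15.04, 15.57 and 14.9 FPKM in Scramble, 7.91, 8.85 and 9.1 FPKM in the Si-FIBP#1 samples and 12.94, 12.82 and 11.53 FPKM in the Si-FIBP#2 samples. All 3 groups were apart, with 56.8% and 81.9% of the Scramble mean left. The log2 changes were -0.75 and -0.27 (limma, Benjamini-Hochberg adjusted p = 3.98e-05 and 0.014).

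The CDC25A result rests on transcripts that were assembled from the reads and are not in Ensembl. These carried 87.57% to 96.79% of its FPKM, mostly in 1 assembled transcript of 3675 nt with mean levels of 10.4, 5.66 and 8.19 FPKM in Scramble, Si-FIBP#1 and Si-FIBP#2. The annotated transcripts alone summed to 0.737, 0.793 and 1.07 FPKM, and their log2 changes were 0.050 and 0.25, neither past the test (limma, Benjamini-Hochberg adjusted p = 0.859 and 0.323). The fall of CDC25A is therefore a statement about the assembled models assigned to the gene, and it is lost when they are left out. In addition, the change with Si-FIBP#2 did not pass without Scramble replicate 2 or without Si-FIBP#2 replicate 3, where the highest adjusted p was 0.0561.

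Assembled transcripts also carried 44.52% to 62.14% of CDC25B and 11.39% to 38.35% of CDC25C. For CDC25B an assembled transcript of 2956 nt had means of 23.0, 9.70 and 10.4 FPKM in Scramble, Si-FIBP#1 and Si-FIBP#2, and the other assembled one, of 2796 nt, had means of 6.53, 4.40 and 6.79 FPKM. The annotated transcript ENST00000439880, the most abundant of the annotated ones in Scramble, was at 8.09, 3.05 and 4.11 FPKM and ENST00000245960 at 3.70, 3.34 and 3.65 FPKM, so the transcripts did not all move alike. Annotated transcripts alone summed to 23.4, 13.3 and 13.1 FPKM for CDC25B and to 13.4, 5.91 and 6.89 FPKM for CDC25C, so both genes were lower in the depleted groups on this basis as well. In the cyclins, CDK1, CKS1B and CKS2 the assembled share reached at most 4.05%.

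One transcript carried most of the value for several other members. ENST00000395284 made up 84.85%, 88.0% and 86.56% of CDK1 in Scramble, Si-FIBP#1 and Si-FIBP#2, and ENST00000308987 made up 91.85%, 87.58% and 86.55% of CKS1B. CCNB1 was split between ENST00000506572, with 60.88%, 59.11% and 64.01%, and ENST00000256442, with 34.39%, 36.02% and 31.93%. These shares were estimated by the authors' quantification from overlapping reads and were not tested. Of 7 listed processed copies of the members, 1 was above 0, CKS1BP3 with at most 6.68 FPKM, which is small beside CKS1B.

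**Figure D1:**
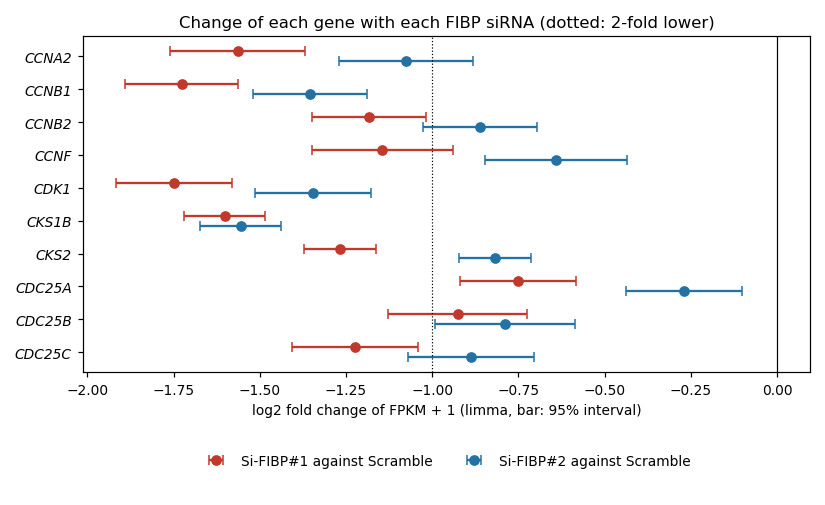
Log2 change of each member with Si-FIBP#1 and with Si-FIBP#2 against Scramble. The horizontal axis is the log2 difference of FPKM + 1, and points are the limma estimates with lines for their 95% intervals. The solid vertical line marks no change and the dotted one a 2-fold decrease. All 10 members lie to the left of 0 with both siRNAs, from -1.75 for CDK1 to -0.75 for CDC25A with Si-FIBP#1 and from -1.56 for CKS1B to -0.27 for CDC25A with Si-FIBP#2.

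Counted over the members, a fall of more than 2-fold with an adjusted p below 0.05 (limma, Benjamini-Hochberg over 14985 genes) was found for 8 of 10 with Si-FIBP#1, and CDC25A and CDC25B were the exceptions. Over all genes tested, 3.11% passed in this direction. With Si-FIBP#2 the 4 members that passed were CCNA2, CCNB1, CDK1 and CKS1B, against 2.13% of all genes. No member was higher with either siRNA, whereas 2.55% of all genes rose past the thresholds for Si-FIBP#1 and 2.92% for Si-FIBP#2. These shares depend on the pseudocount: at 0.1 in place of 1, 849 and 953 genes were called higher in place of 382 and 438, and no member was. With both siRNAs averaged, 7 members were called lower against 2.45% of all genes, and CCNF, CDC25A and CDC25B stayed short of 2-fold.

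Without the fold threshold 10 of 10 members passed in each comparison, against 19.9% of genes lower with Si-FIBP#1, 17.7% with Si-FIBP#2 and 20.3% with both averaged. All 6 depleted samples were below all 3 Scramble samples for 10 of 10 members and for 16.5% of all genes. The median log2 change of the members was -1.25 for Si-FIBP#1 and -0.87 for Si-FIBP#2, where the medians of all genes were 0.073 and 0.11. The comparisons share the Scramble samples, so these counts are not independent of each other. The members were chosen with earlier results of these data known, so the shares of all genes beside them serve as description. Whether a change follows from loss of FIBP or from another effect of an siRNA was not tested.

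The direct comparison of the siRNAs asked whether the members fell to the same level. The 8 members CCNA2, CCNB1, CCNB2, CCNF, CDK1, CKS2, CDC25A and CDC25C were higher with Si-FIBP#2 than with Si-FIBP#1 (limma, Benjamini-Hochberg adjusted p below 0.05), against 9.58% of all genes, while none was called higher by more than 2-fold, against 0.267% of all genes. The median difference was 0.39 on the log2 scale for the members and 0.040 for all genes. CKS2 had the smallest p, with a difference of 0.45 (95% interval 0.34 to 0.55, limma, Benjamini-Hochberg adjusted p = 0.000559), and CCNF had the largest estimate, 0.50 (0.30 to 0.71, adjusted p = 0.00686). The differences for CCNA2, CDC25A, CDK1 and CCNB1 were 0.49, 0.48, 0.40 and 0.37. CCNB2 and CDC25C, with 0.32 and 0.34, no longer passed without Si-FIBP#1 replicate 1, Si-FIBP#1 replicate 2, Si-FIBP#2 replicate 1 or Si-FIBP#2 replicate 3, which left 6 members. CDC25A and CDC25C did not pass with annotated transcripts alone, which also left 6.

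CKS1B was the member closest to equal between the siRNAs. Its difference was 0.046 with a 95% interval of -0.071 to 0.164 (limma, Benjamini-Hochberg adjusted p = 0.609). This interval leaves out the point estimate of every other member but CDC25B. It overlaps the intervals of CCNB2 (0.156 to 0.488) and CDC25C (0.156 to 0.522), and differences between genes were not tested. CDC25B differed by 0.14, with an interval of -0.064 to 0.34 (adjusted p = 0.348), which is too wide to tell it from that of several others. The remaining FIBP level, given above, differed by 0.13 ± 0.18 (SE), which is too imprecise to call the depletion equal in both groups.

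Ratios between related genes within a sample do not depend on how libraries were scaled. CCNB1 made up 72.67%, 72.638% and 70.388% of the summed CCNB1 and CCNB2 FPKM in Scramble, 63.049%, 63.795% and 64.592% in the Si-FIBP#1 samples and 64.561%, 63.754% and 65.441% in those of Si-FIBP#2. All 6 depleted samples lay below the Scramble samples, with a mean difference of -7.70 percentage points (exact permutation test, two-sided, p = 0.0238, the smallest that 84 splits allow, adjusted p = 0.0357 over 3 shares). With any sample left out the smallest adjusted p was 0.0536, for this share and the next. CCNB1 thus lost a larger part of its RNA than CCNB2, and the siRNA groups overlapped in this share. Among single genes, 16.5% were lower and 26.3% higher in all 6 depleted samples than in all 3 Scramble samples. How often other pairs of genes separate in this way was not counted, here or for the shares and the ratio below.

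The CKS genes behaved differently from the cyclins in that the siRNA groups were apart. CKS1B made up 43.2% ± 0.776 of the summed CKS1B and CKS2 FPKM in Scramble, 37.6% ± 0.485 in the Si-FIBP#1 samples and 31.3% ± 0.533 in those of Si-FIBP#2 (SD, n = 3). The depleted samples differed from Scramble by -8.83 percentage points (exact permutation test, two-sided, p = 0.0238, adjusted p = 0.0357). This p is the smallest that 84 splits allow, and the test pools both siRNA groups although they were apart. The Si-FIBP#2 samples, at 30.667% to 31.709%, were all below the Si-FIBP#1 samples, at 37.025% to 37.922%, and 3 samples against 3 cannot give an exact p below 0.1.

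The phosphatases were compared in the same way. CDC25B made up 61.6% ± 0.136 of the summed CDC25 FPKM in Scramble, 63.6% ± 3.41 in the Si-FIBP#1 samples and 58.3% ± 2.22 in those of Si-FIBP#2 (SD, n = 3). All Si-FIBP#2 samples, at 55.707% to 59.622%, were below every Scramble sample, at 61.426% to 61.684%, and below every Si-FIBP#1 sample, at 61.224%, 61.978% and 67.465%, of which the highest, replicate 1, alone stood well above Scramble. Pooled over both siRNAs the difference of -0.67 percentage points did not pass (exact permutation test, two-sided, p = 0.7143), and it changed sign with annotated transcripts alone. On that basis the mean FPKM of CDC25A, CDC25B and CDC25C were 0.737, 23.4 and 13.4 in Scramble. With Si-FIBP#2 they were 1.07, 13.1 and 6.89, nearly the same CDC25B share, so its lower share there rests on the assembled transcripts.

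The ratio of the summed CCNA2, CCNB1 and CCNB2 FPKM to CDK1 FPKM, chosen after the values were seen and not tested, was 3.945 to 4.067 in Scramble, 4.339 to 4.794 for Si-FIBP#1 and 4.415 to 4.625 for Si-FIBP#2. It was higher in each of the 6 depleted samples than in any Scramble sample.

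The order of the levels, in FPKM, changed little. In Scramble the order was CKS2, CCNB1, CKS1B, CDK1, CCNB2, CCNA2, CDC25B, CDC25C, CDC25A and CCNF from high to low, and neighbours overlapped only for CDK1 with CCNB2 and for CDC25A with CCNF. In both depleted groups CCNB2 stood above CDK1 and CDC25A above CDC25C, with no overlap between these pairs. The place of CDC25A rests on its assembled transcripts. With annotated ones alone it was at 0.793 and 1.07 FPKM with Si-FIBP#1 and Si-FIBP#2, below CDC25C at 5.91 and 6.89 FPKM. CDC25B passed CCNA2 with Si-FIBP#1 and overlapped it with Si-FIBP#2, and CCNB1 overlapped CKS1B only with Si-FIBP#1. CCNF, which was apart from CDC25C and below it in Scramble, overlapped it with Si-FIBP#2.

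The other genes of the switch were taken by function, in lists chosen with earlier results of these data known. Among 19 activators and inhibitors of CDK1, 7 fell past the thresholds with Si-FIBP#1, 4 with Si-FIBP#2 and none rose past them, with median log2 changes of -0.53 and -0.30. For this list and those that follow, the shares of all genes called lower were 3.11% and 2.13%, and those lower at an adjusted p below 0.05 without the fold threshold 19.9% and 17.7%. The 4 called with both were PKMYT1, the membrane-bound inhibitory kinase (-1.86 and -1.29), TPX2, an activator of Aurora A (-1.58 and -1.02), PLK1, the kinase that promotes CDC25 activity and WEE1 decay (-1.45 and -1.22), and CDKN3, a phosphatase that acts on CDKs (-1.44 and -1.23). Their adjusted p were at most 2.12e-05 (limma, Benjamini-Hochberg). PKMYT1, which restrains CDK1, fell with the members, but other restraining genes did not all do so. CDKN1B, a CDK inhibitor named after its values were seen, rose by 0.48 and 0.25 (adjusted p = 9.08e-05 and 0.00382).

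WEE1, the nuclear inhibitory kinase, and CDKN1A, a CDK inhibitor, differed between the siRNAs. CDKN1A, named after its values were seen, had the largest difference of the list. It went from 48.2 FPKM in Scramble to 22.6 FPKM in the Si-FIBP#1 samples and 54.6 FPKM in those of Si-FIBP#2, with log2 changes of -1.06 and 0.18 and a difference of 1.24 (limma, Benjamini-Hochberg adjusted p = 2.41e-05). WEE1 went from 17.5 ± 1.78 FPKM in Scramble to 7.02 ± 1.59 with Si-FIBP#1 and 14.1 ± 1.49 with Si-FIBP#2 (SD, n = 3), a log2 change of -1.22 (limma, Benjamini-Hochberg adjusted p = 9.98e-05) and of -0.29 (adjusted p = 0.11). The difference itself was 0.92 (adjusted p = 0.00312). CDKN1C, a CDK inhibitor, was low throughout and went from 0.667 FPKM to 1.54 FPKM with each siRNA, a rise of 0.62 on the log2 scale in both comparisons (limma, Benjamini-Hochberg adjusted p = 0.017 and 0.0167).

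Of 13 genes of the phosphatase switch that opposes CDK1, none was called with both siRNAs. MASTL, the Greatwall kinase, and PPP1CB, a catalytic subunit of protein phosphatase 1, passed 2-fold with Si-FIBP#1 (-1.11 and -1.19), and PPP2CB, a catalytic subunit of protein phosphatase 2A, with Si-FIBP#2 (-1.28). With the other siRNA each fell as well, MASTL by 0.88, PPP1CB by 0.33 and PPP2CB by 0.68 on the log2 scale (limma, Benjamini-Hochberg adjusted p at most 0.0176). The siRNAs differed by 0.87 for PPP1CB and by -0.60 for PPP2CB, and for MASTL the difference did not pass (adjusted p = 0.0565). These 3 were named after their values were seen. PPP2R1A, the scaffold subunit of protein phosphatase 2A, showed log2 differences of 0.14 and 0.29 (limma, Benjamini-Hochberg adjusted p = 0.0864 and 0.00311). The medians of the list were -0.20 and -0.12.

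Of 18 genes for the turnover of mitotic cyclins and CDC25, 4 passed in the lower direction for Si-FIBP#1 and 3 for Si-FIBP#2, and the medians, -0.090 and 0.0060, were near those of all genes. CDC20, the mitotic activator of the anaphase-promoting complex, fell by 1.88 and 1.52 on the log2 scale. Its ubiquitin-conjugating enzyme UBE2C fell by 1.73 and 1.30, and its inhibitor FBXO5 by 1.42 and 1.20. BTRC, an F-box protein that directs WEE1 and CDC25A to destruction, rose by 0.53 and 0.61. These changes passed the test (limma, Benjamini-Hochberg adjusted p at most 0.000249).

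Of 20 genes for transcription of late cell cycle genes, 6 fell more than 2-fold for Si-FIBP#1 and 5 for Si-FIBP#2, and 17 were lower at an adjusted p below 0.05 in each. The medians were -0.60 and -0.54. MYBL2 and FOXM1, activators of late cell cycle genes, went from 65.2 to 16.7 and 22.1 FPKM and from 78.1 to 21.8 and 28.0 FPKM. E2F2, an activating E2F, changed by -1.64 and -1.56, and E2F8, a repressing one, by -1.48 and -1.37. E2F5, a partner of the pocket proteins, rose by 0.72 and 0.84 (limma, Benjamini-Hochberg adjusted p = 3.82e-05 and 1.66e-05).

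Among 10 interphase cyclins and kinases 9 could be tested, of which 2 fell more than 2-fold for Si-FIBP#1 and 3 for Si-FIBP#2, and 1 was called higher with each, CCNE1 with Si-FIBP#1 and CCNB3 with Si-FIBP#2, against 2.55% and 2.92% of all genes. CCNE2, a cyclin of the start of S phase, fell by 1.14 and 1.07, whereas its paralog CCNE1, named after its values were seen, went from 11.2 to 25.2 and 20.01 FPKM (log2 changes 1.11 and 0.77, limma, Benjamini-Hochberg adjusted p = 9.94e-05 and 0.000896). The 2 E-type cyclins thus moved in opposite directions. CCNA1, the cyclin A paralog known from the germ line, was at 2.97 FPKM in Scramble and at 0.71 and 0.417 FPKM in the depleted groups. CCNB3, a B-type cyclin known from meiosis, went from 0.377 FPKM to 2.22 and 2.25 FPKM, with wide spread and adjusted p of 0.0932 and 0.042 (limma, Benjamini-Hochberg).

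The genes whose log2(FPKM + 1) profile over the 9 samples was most like the mean profile of the members were sought among 10004 other genes. They were TYMS, the thymidylate synthase (Pearson r = 0.9997), KIF2C, a kinesin that depolymerises microtubules (0.9991), BUB1, a spindle checkpoint kinase (0.9990), CIP2A, an inhibitor of protein phosphatase 2A (0.9990), and CDCA8, a subunit of the chromosomal passenger complex (0.998). TYMS stood at 213, 45.7 and 73.4 FPKM in Scramble, Si-FIBP#1 and Si-FIBP#2, and KIF2C at 74.7, 21.8 and 30.8 FPKM. The samples form 3 clusters, the groups, so a high r mainly says that the group means have the same order and spacing. Among the members themselves CCNB1 and CDK1 were most alike (0.998) and CKS1B and CDC25A least (0.782).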

How the data were processed

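For each sample the authors deposited FPKM values per transcript, rounded to 2 decimals, for Ensembl transcripts and transcripts assembled from the reads. HISAT2 and StringTie are named in the submitters' processing notes; versions, genome build and annotation release are not given in the sources used here. The unit was inferred from the values and from StringTie. Groups and replicate numbers came from the labels.

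Transcript FPKM were summed per gene. The 14985 genes that reached 1 FPKM in 3 or more of the 9 samples were tested on log2(FPKM + 1) with limma 3.58.1 in R 4.3.3 (1 fit over 9 samples, mean-variance trend, Benjamini-Hochberg adjustment). A call needed a fold change over 2 and an adjusted p below 0.05, the thresholds of the study. Fold changes of low genes are understated on this scale. Shares were compared with exact permutation tests (scipy 1.17.1, Python 3.11.15). Steps were tested on simulated data. Members and gene lists were chosen with earlier results of these data known. From each list, up to 4 genes called with both siRNAs and in 1 direction were named, with the largest change in the other direction and WEE1, PKMYT1, PLK1 and FOXM1. The genes most like the members were the 5 with the highest Pearson r among genes with a mean of at least 5 FPKM. Alternatives were another pseudocount, filter, scaling, transcript set, spread model or sample set, the replicate number as a block and each sample left out. Gene positions are from GENCODE release 29 (GRCh38), Ensembl identifiers linking it to the values, and promoters from RefSeq (GRCh38.p14).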

Additional observations from a re-analysis of the deposited data

Results flagged for a closer look

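The effect of Si-FIBP#2 differed from that of Si-FIBP#1, by the direct test between these groups (limma, Benjamini-Hochberg adjusted p below 0.05), for 8 members and 12 other genes of the lists and markers named in the text. The level was higher under Si-FIBP#2 for all of these but CDKN1B and PPP2CB. Over all genes, 9.58% were higher and 5.8% lower by the same test. Part of the named genes were picked after their values were seen, so these shares serve as description. Further genes of the lists, not named in the other sections, passed in both directions, such as AURKA (0.525) and CDK4 (-0.551). They are not counted here. The log2 differences were 0.488 for CCNA2, 0.373 for CCNB1, 0.322 for CCNB2, 0.504 for CCNF, 0.403 for CDK1, 0.449 for CKS2, 0.482 for CDC25A and 0.339 for CDC25C. For the inhibitory kinases WEE1 and PKMYT1 they were 0.924 and 0.568 (adjusted p = 0.00312 and 0.00642). TPX2 differed by 0.553, UBE2C by 0.431, MYBL2 by 0.382, CDC20 by 0.36 and FOXM1 by 0.341, with adjusted p of 0.00304, 0.0037, 0.00528, 0.00793 and 0.026. Among genes named after their values were seen, CDKN1A differed by 1.235, PPP1CB by 0.868, CD68 by 0.63, CDKN1B by -0.226 and PPP2CB by -0.6, with adjusted p of 2.41e-05, 0.000698, 0.00284, 0.022 and 0.000286. The FIBP level itself differed by 0.13 ± 0.18 (SE, limma, adjusted p = 0.686). With 3 samples in a group, single samples were not screened as outliers.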

How the results depend on the processing

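Of 710 log2 changes of members recomputed under the alternatives, 700 kept their direction and their call (2-fold and adjusted p together), and 688 of these also kept their side of the adjusted p threshold alone. The other 12 were CDC25A with Si-FIBP#2, and CCNB2, CDC25A and CDC25C between the siRNAs. With annotated transcripts alone CDC25A turned to 0.050 with Si-FIBP#1, 0.25 with Si-FIBP#2 and 0.15 with both averaged, the difference between the siRNAs for CDC25B turned to -0.034, the CDC25B share turned to 1.89 percentage points, and CDC25C with both averaged came to -0.97. Here the assembled models, which carry most of CDC25A, are left out by construction. Without the fold threshold 10 members were called with Si-FIBP#2 in place of 4, and 8 between the siRNAs in place of 0. Leaving out each sample in turn gave 8 to 9 members called with Si-FIBP#1, 3 to 4 with Si-FIBP#2, 6 to 7 with both averaged and 0 between the siRNAs. CCNB2 with both averaged came to -0.96 without Scramble replicate 3 and to -0.99 without Si-FIBP#2 replicate 2, and the difference for CKS1B ranged from -0.0030 without Si-FIBP#1 replicate 1 to 0.075. The CCNB1 share ranged from -8.46 to -7.31 and the CKS1B share from -9.53 to -8.08 percentage points, and with a sample left out their adjusted p was 0.0536 or 0.107, the smallest that the fewer splits allow. The CDC25B share ranged from -1.98 to 0.371, the latter without Si-FIBP#2 replicate 2; the cause was not tested.

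With the replicate number as a block the counts were 8, 4, 7 and 0, the same as without it. Correlations of deviations between samples of the same number ran from -0.057 to 0.10, with 1 of 9 over 0.1, so the numbers were not taken to pair the samples.

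Over all genes, a pseudocount of 0.1 gave 649 lower and 849 higher calls with Si-FIBP#1, in place of 466 and 382, and 458 and 953 with Si-FIBP#2, in place of 319 and 438. Scaling by the median ratio gave 528 and 338, and 417 and 345, and for both averaged 444 and 287 in place of 367 and 354. It moved the median log2 change of all genes to 0.023 (otherwise 0.073) for Si-FIBP#1 and 0.027 (otherwise 0.11) for Si-FIBP#2, and members called were as many under each scaling.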
